A study of Mus musculus with 15 samples.

Results

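The nuclear genes for the subunits of the oxidative phosphorylation complexes were examined in whole-brain RNA-seq of young and old mice under 2 diets. Members were chosen by symbol (Nduf[abcsv] with a number, Sdh[abcd], Uqcr, Cox4 to Cox8 with any suffix, and Atp5, without pseudogenes and without the Ndufaf assembly factors) and by at least 10 counts summed over all 15 mice. This gave 82 of the 43629 genes listed, with 36 genes of complex I, 4 of complex II, 8 of complex III, 17 of complex IV and 17 of complex V. Another 2 symbols, Cox6c2 and Cox8c, matched but fell short of 10 counts, and Cox6c2 is annotated as a processed pseudogene. The animals were male wildtype C57BL/6J mice, aged 3 or 24 months according to the labels. They had food always present (ad libitum, AL) or were fed every other day (EOD), which gives food on alternate days. Young EOD mice had been on the diet only briefly, whereas old EOD mice had been on it for most of their lives. There were 4 mice in the young AL group and 3 in the young EOD group. The old AL and old EOD groups had 4 mice each, and each mouse gave 1 library.

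Oxidative phosphorylation is carried out in the inner mitochondrial membrane. Complexes I (NADH dehydrogenase) and II (succinate dehydrogenase) pass electrons to coenzyme Q, complex III passes them on to cytochrome c, and complex IV (cytochrome c oxidase) passes them to oxygen. Complexes I, III and IV pump protons, and complex V, the ATP synthase, uses the resulting gradient to make ATP. Complex II is encoded entirely in the nucleus, while the other complexes also contain subunits from the mitochondrial genome. The brain depends heavily on this pathway to fuel ion pumping and synaptic transmission. Several subunits of complex IV exist as a ubiquitous isoform and a further isoform known from muscle, lung or testis. The symbols follow older nomenclature, and a few genes sit in a complex by name only. Ndufa4 is now known as a component of complex IV, and Atp5s encodes a coupling factor of the ATP synthase rather than a core subunit.

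Total counts ranged from 5198748 to 13610729 per mouse. The third young AL mouse stood apart, with the highest total but the fewest genes with a count (17280, against 19054 to 20880 in the other mice). Some values are also given without it, whereas the group means of the complex sums and the spreads within groups include it. The fourth old AL mouse had summed pituitary marker levels of 1039 CPM (the count of a gene scaled to the TMM-adjusted library total), the highest of all mice. The file headers name 3 sequencing lanes of 5, 6 and 4 mice, and lane 3 held no young EOD mouse. In bulk tissue, fewer cells of a type and less RNA per cell cannot be told apart.

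The 82 genes together took 8496 to 9803 CPM per mouse, or 0.850% to 0.980% of the TMM-adjusted library total. Of this sum, complex V genes made up 37.7% to 39.6%, complex I genes 27.1% to 29.6%, complex IV genes 12.9% to 14.1%, complex III genes 9.52% to 10.4% and complex II genes 9.11% to 10.04%. Among these members V stood above I and I above IV in all 15 mice, whereas the ranges of II and III overlapped. The symbol rule left out Cyc1, a complex III subunit with 18189 counts over all 15 mice, and the complex I subunit Ndufab1. Both were read with the electron carriers instead, so the sums and shares of complexes I and III do not include them. The 82 genes were short and abundant. The 79 members that passed edgeR's filterByExpr had a median gene model of 1322 bases, against 3707 bases for all 15864 genes tested, and a median of 45.9 CPM per kilobase of gene model, against 5.55. Their spread within groups was smaller, with a median standard deviation of 0.142 on the log2 CPM scale, against 0.197 for all genes tested. Spread was not compared with that of other genes of like level. Of the 79, 72 lay above the per-kilobase median of all genes tested and 70 were shorter than the median gene.

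Per kilobase, Ndufa4, placed in complex I by name only, led that set at 399 CPM. Sdha, the flavoprotein that oxidises succinate, led complex II at 149.6, and Uqcrc2, a core protein, led complex III at 137. In complex IV, Cox6b1, which faces the intermembrane space, came first at 286, followed by Cox4i1 at 221. In complex V the alpha and beta subunits of the catalytic head, Atp5a1 and Atp5b, stood at 321 and 313 CPM per kilobase. The median over the genes of a complex lay between 29.3 (complex IV) and 63.8 CPM per kilobase (complex III). The complex IV median is lowered by tissue-restricted isoforms, listed next, which reached at most 3.76 CPM per kilobase. Transcript levels within 1 complex spanned a wide range, from 6.86 (Ndufb7) to 399 CPM per kilobase in complex I.

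Most of the lowest genes were of 2 kinds. One consisted of tissue-restricted isoforms of complex IV, namely Cox6a2 (3.76 CPM per kilobase), Cox7a1 (3.72), Cox8b (2.10), Cox6b2 (1.55), Cox4i2 (1.48) and Cox7b2 (0.658). The other consisted of widely used subunits whose coding sequence is duplicated in pseudogenes. The complex I subunits Ndufb7 and Ndufb2 (7.88 CPM per kilobase) were also low, with 0% and 1.13% of their coding sequence windows (defined next) found in a pseudogene. The authors counted only primary alignments with a mapping quality of at least 5, so reads that match several places equally well could be lost. Whether such loss lowered the levels of these genes was not tested. Each coding sequence was split into windows of 50 bases, and each window was searched for in the transcripts of other, non-overlapping genes (GENCODE annotation of GRCm38). The untranslated parts of the members, which also take counts, were not searched. For Cox7c the coding sequence is 189 bases of a gene model of 1131. For 32 of the 82 members at least 1 window also occurred in a pseudogene, and for 12 members at least 50% of windows did. All windows were shared for Cox7c, Atp5l, Atp5g2 and Ndufb4, and 99.7% for Atp5g1. These 5 genes had 0.199 to 8.47 CPM per kilobase, against a median of 58.8 for the 50 members with no window in a pseudogene. Of those 50, Cox5b shared 61.5% of its windows with the gene model Gm11273 and Atp5b 1.04% with Gm4707, both annotated as protein-coding. The 7 genes with 50% to 99% of windows shared lay between 17.0 and 45.7 CPM per kilobase. Levels of these 12 genes and of Cox5b (12.2 CPM per kilobase) are uncertain, and so is the height of the complex sums and shares that include them.

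The coding sequences of 3 complex IV subunits show the range of this sharing. They are given without the stop codon, 5′ to 3′, with bases inside a shared window in capitals. Cox7c (GRCm38, chromosome 13, 86044816 to 86046904, minus strand), Cox6c (chromosome 15, 35925886 to 35938246, minus strand) and Cox8a (chromosome 19, 7215158 to 7217616, minus strand) all encode small subunits that cross the membrane.
Cox7c: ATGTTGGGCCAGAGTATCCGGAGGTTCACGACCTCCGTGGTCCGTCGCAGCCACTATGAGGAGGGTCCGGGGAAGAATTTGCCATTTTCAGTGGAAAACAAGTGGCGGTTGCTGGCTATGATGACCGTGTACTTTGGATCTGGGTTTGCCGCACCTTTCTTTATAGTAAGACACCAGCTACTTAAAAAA
Cox6c: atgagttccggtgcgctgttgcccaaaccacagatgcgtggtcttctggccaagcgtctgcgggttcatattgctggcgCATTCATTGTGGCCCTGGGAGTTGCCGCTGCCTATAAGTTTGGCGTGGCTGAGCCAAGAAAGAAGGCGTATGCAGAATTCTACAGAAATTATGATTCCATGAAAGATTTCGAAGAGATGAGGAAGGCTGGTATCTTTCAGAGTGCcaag
Cox8a: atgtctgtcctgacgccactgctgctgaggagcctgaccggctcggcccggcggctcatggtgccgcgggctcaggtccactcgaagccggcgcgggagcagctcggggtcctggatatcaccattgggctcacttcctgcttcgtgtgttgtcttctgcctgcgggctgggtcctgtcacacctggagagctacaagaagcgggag
All 189 coding bases of Cox7c were shared, and every window was present in the processed pseudogene Gm12338 (chromosome 11, 75599763 to 75599954). Cox7c had 136 counts over all 15 mice, and Gm12338 itself had 5. Of the 228 bases of Cox6c, 145 were shared with the processed pseudogene Cox6c2, and Cox6c had 14889 counts. None of the 207 bases of Cox8a was shared, and it had 13240 counts. For Atp5l, which had 42 counts, windows were found in 12 pseudogenes, and for Atp5g2, which had 48, in 2.

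**Figure D1:**
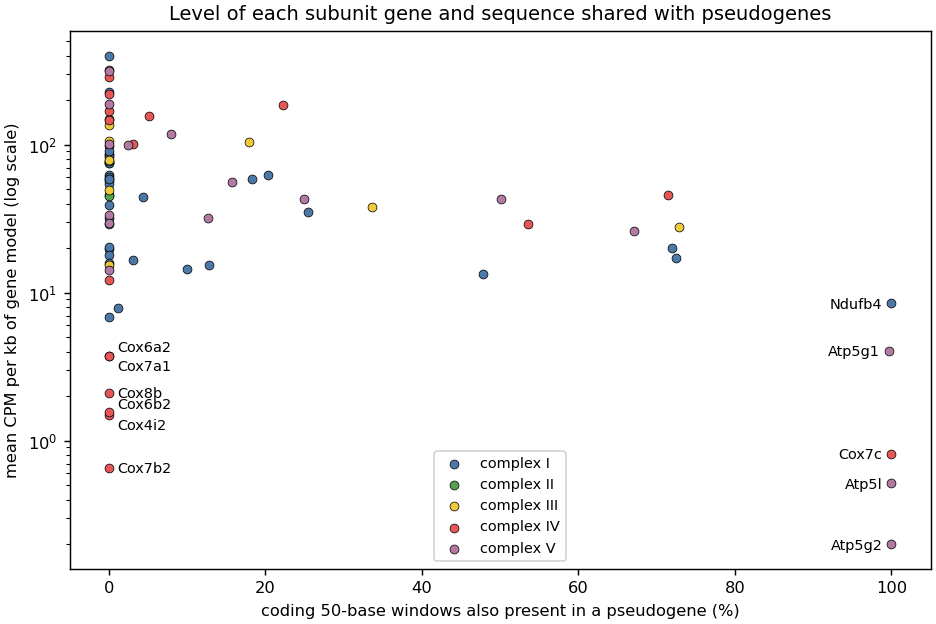
Each point is 1 of the 82 subunit genes, coloured by complex. The horizontal axis gives the percentage of its coding windows of 50 bases that also occur in a pseudogene, and the vertical axis its mean CPM per kilobase of gene model over 15 mice on a log scale; the 5 genes at the right edge lie between 0.199 and 8.47.

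The first question was whether the complexes differed between age and diet groups. The summed level of complex I genes was 2615 ± 182 CPM (SD, n = 4) in young AL, 2551 ± 133 (n = 3) in young EOD, 2645 ± 85.9 (n = 4) in old AL and 2628 ± 64.1 (n = 4) in old EOD mice. Complex II genes summed to 874 ± 43.2, 872 ± 33.4, 868 ± 8.12 and 887 ± 26.2 CPM in the same order. For both complexes the differences between group means were smaller than the spread within the young AL group. Complex III genes summed to 899.7 ± 25.03, 890.3 ± 47.97, 935 ± 36.3 and 943 ± 23.95 CPM, and each old group overlapped both young groups. Complex IV genes summed to 1255 ± 101, 1154 ± 58.7, 1263 ± 55.6 and 1255 ± 22.04 CPM. The young EOD mice had 1124, 1117 and 1222 CPM. They overlapped the young AL mice, the first of which had 1122 CPM, and the old AL mice, but all 4 old EOD mice lay above them (1234 to 1285 CPM). Complex V genes summed to 3521 ± 258, 3457 ± 167, 3551 ± 85.7 and 3634 ± 144 CPM, with overlap of all groups. Over all 82 genes the mean of the old mice was 1.03 times that of the young mice, and the mean of EOD mice was 0.995 times that of AL mice.

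**Figure D2:**
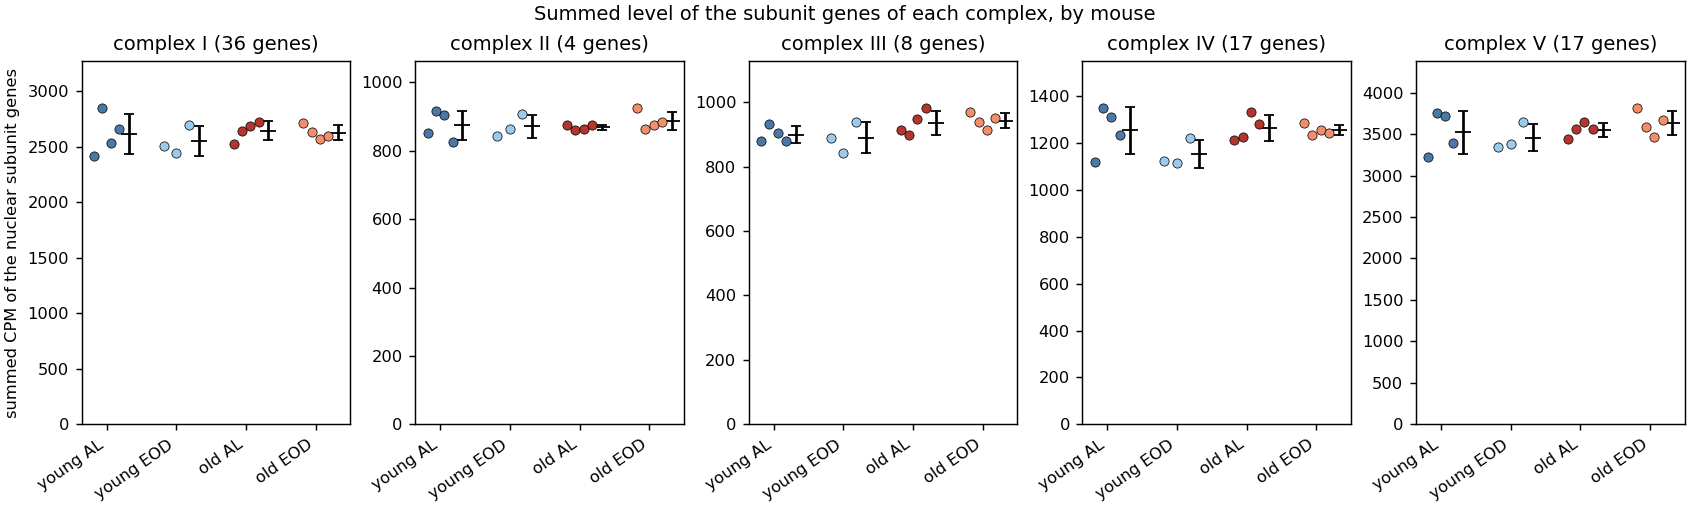
Summed CPM of the nuclear subunit genes of complexes I to V, with 1 point per mouse and the group mean ± SD as the bar beside the points. The lowest mean of complex IV is that of the young EOD mice (1154 CPM), and apart from young against old EOD mice in that complex, all pairs of groups overlap.

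For single genes the quasi-likelihood test of edgeR was used (Benjamini-Hochberg adjustment over all genes tested, false discovery rate, FDR, under 0.1). The age contrast in AL mice and the diet contrast in young mice share the young AL animals, and the averaged contrasts use all 15 mice, so the contrasts are not independent. With age in AL mice, 0 of 79 members passed, with 2 at an unadjusted p under 0.05, and 1.09% of all genes tested passed. With age in EOD mice, 0 members passed, with 3 at an unadjusted p under 0.05, and 0.290% of all genes passed. DESeq2 and limma voom likewise called 0 members in these contrasts. Averaged over both diets, 1 of 79 members rose with age and 0 fell, against 2.30% of all genes tested, and 4 members had an unadjusted p under 0.05. The median log2 fold change of the members was 0.013 under AL, 0.058 under EOD and 0.047 averaged, and that of all genes tested was -0.0096, -0.00036 and -0.0049. On average over diets, 55 of 79 members had a higher estimate in old mice and 24 a lower one. By complex, this median was 0.041 for I, 0.017 for II, 0.062 for III, 0.11 for IV and 0.034 for V. With a correction for gene length in each library, these values were 0.010, 0.0016, 0.038, 0.078 and 0.032, and the median of all members in AL mice was -0.0053, opposite in sign to the uncorrected value. Without the third young AL mouse the median of all members averaged over diets was 0.039.

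For most members the data set narrow limits on a difference with age. In 73 of 79 members the 95% interval of the averaged age difference lay within 1.5-fold in either direction. This held for all 36 tested genes of complex I, all 4 of complex II, all 8 of complex III and all 15 of complex V, and for 10 of 16 of complex IV. The others were Cox4i2, Cox6a2, Cox6b2, Cox7a1, Cox7c and Cox8b, each with fewer than 500 counts over all 15 mice.

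The member that rose with age was Cox8b (GRCm38, chromosome 7, 140898943 to 140900446, minus strand), the heart and muscle isoform of subunit 8 of cytochrome c oxidase. Its levels were 0.121, 0.366, 0 and 0.837 CPM in the 4 young AL mice and 0.103, 0.172 and 0.526 CPM in the 3 young EOD mice. The old AL mice had 1.24, 1.05, 2.08 and 0.841 CPM and the old EOD mice 1.42, 1.37, 1.01 and 0.289 CPM. The fourth old EOD mouse lay inside the range of the young mice, the fourth old AL mouse lay just above it, and the other old mice lay higher. Averaged over diets the log2 fold change was 1.88 (SE 0.536, 95% interval 0.76 to 3.00, edgeR FDR 0.0946), a 3.68-fold difference. Without the third young AL mouse, in which the count was 0, it was 1.64 (edgeR FDR 0.0762). The gene had 103 counts in all, at most 17 in any mouse. The FDR stood close to the threshold, and the call was lost (edgeR FDR 0.117 to 0.286) when any 1 of 10 mice was left out, namely the first or the second young AL, the first or the second young EOD, or any old AL or old EOD mouse other than the fourth of its group. It was also lost with the replicate number as a block (replicate block, log2 fold change 1.89, edgeR FDR 0.184) and with sequencing lane as a covariate (1.90, edgeR FDR 0.161). These settings overlap, because most same-numbered mice shared a lane. Within lanes the old minus young difference in mean log2 CPM was 1.98 in lane 1, 2.09 in lane 2 and -0.28 in lane 3, which held 1 young mouse.

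Since Cox8b is known from muscle, markers of skeletal and heart muscle were read beside it. The 8 markers summed to 4.73 to 10.5 CPM per mouse, with means of 8.17 CPM in young AL, 5.60 in young EOD, 6.44 in old AL and 6.06 in old EOD mice. Actc1 was at 0 in all mice. Of the 8 markers, 3 were tested by edgeR and limma voom and 7 by DESeq2. EdgeR, DESeq2 and limma voom called 0 of those with age averaged over diets, with 0, 1 and 0 at an unadjusted p under 0.05. With age in AL mice, edgeR called 0 of the 3 and had 1 at that p, which was lower in old mice. Over both diets, the mean marker sum of the old mice was 0.885 times that of the young mice. The 5 choroid plexus markers, which include Ttr and Kl, had means of 669.8 CPM in young AL, 639.8 in young EOD, 874 in old AL and 935 in old EOD mice, and their sum was lowest (328 CPM) in the third young AL mouse, without which the young AL mean was 784 CPM. The part of choroid plexus in the Cox8b result was not tested.

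**Figure D3:**
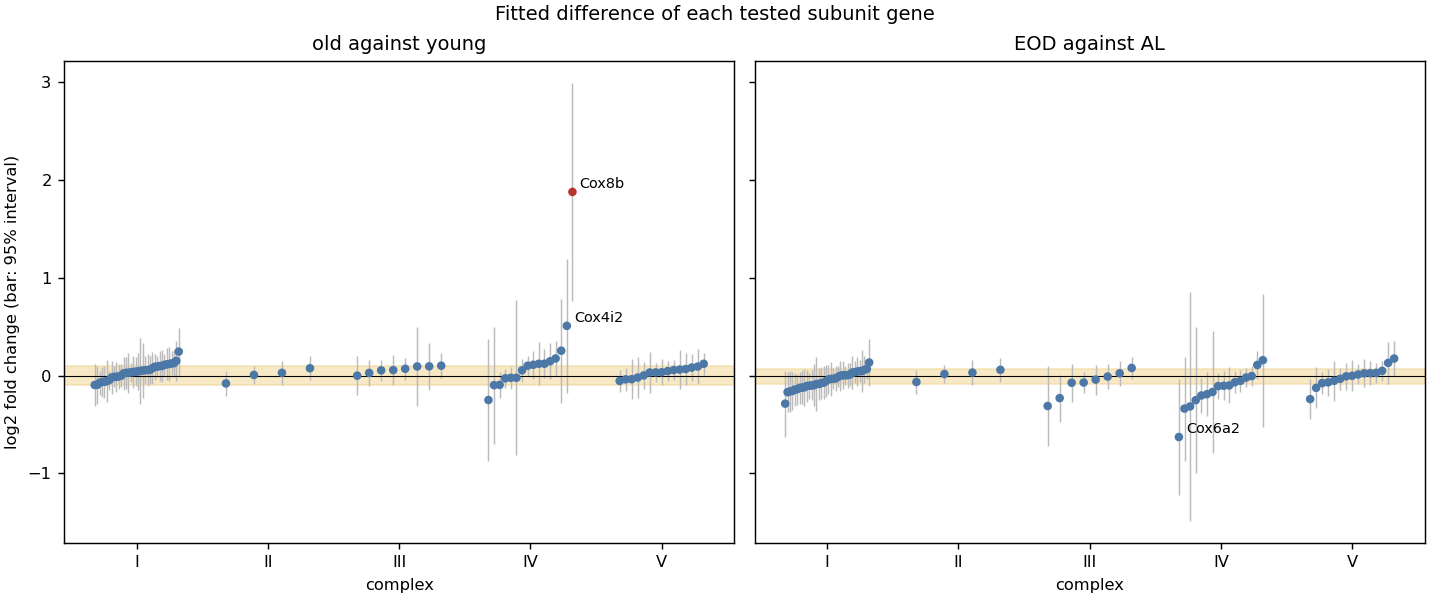
Fitted log2 fold change of each of the 79 tested subunit genes, by complex, for old against young mice and for EOD against AL mice. Points are estimates with 95% intervals, and Cox8b, at 1.88 with age, is the 1 gene with an FDR under 0.1.

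In complex I, Ndufv1, the core subunit that binds NADH, had the smallest p with age. It stood at 141 ± 13.5 CPM (SD, n = 4) in young AL, 141 ± 13.03 (n = 3) in young EOD, 153 ± 10.5 (n = 4) in old AL and 155 ± 8.25 (n = 4) in old EOD mice. The log2 fold change averaged over diets was 0.12 (SE 0.0589, edgeR FDR 0.415), and old and young mice overlapped. Ndufs1, the large iron-sulphur core subunit, differed by -0.047 (95% interval -0.14 to 0.050) and Ndufa4 by -0.014 (-0.12 to 0.094). The 7 nuclear core subunits, which include those that hold the flavin and the iron-sulphur clusters, had a median of 0.047, and the other 29 genes of 0.040.

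The complex II genes varied little. Sdha had 579 ± 33.5 CPM in young AL, 579.8 ± 16.4 in young EOD, 576 ± 14.1 in old AL and 588 ± 19.7 in old EOD mice. The lowest and highest of the 15 mice were at 533 and 613 CPM, and the averaged age difference on the log2 scale was 0.0064 (95% interval -0.082 to 0.095). The iron-sulphur subunit Sdhb differed by 0.075 (SE 0.0603), and the membrane anchors Sdhc and Sdhd by -0.081 (SE 0.0622) and 0.028 (SE 0.0592), none of them past the threshold. In complex III the core protein Uqcrc1 had the smallest p with age, at 0.10 (SE 0.0612, edgeR FDR 0.554). Uqcrc2 differed by 0.069 (95% interval -0.043 to 0.18) and the Rieske iron-sulphur protein Uqcrfs1 by 0.027 (-0.10 to 0.16). In complex V the smallest p belonged to Atp5g3, which encodes subunit c of the membrane rotor. It had 219 ± 21.01 CPM in young AL, 204 ± 14.9 in young EOD, 234 ± 10.7 in old AL and 226 ± 12.1 in old EOD mice, with a log2 fold change of 0.12 (SE 0.0540, edgeR FDR 0.382). The catalytic head subunits Atp5a1 and Atp5b differed by 0.032 (95% interval -0.068 to 0.13) and 0.045 (-0.057 to 0.15).

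The second question was whether EOD feeding changed these genes. None of the 79 members passed at either age or averaged over ages, and edgeR called 0% of all 15864 genes in each of these contrasts. At an unadjusted p under 0.05 there were 4, 1 and 3 members, among 657, 409 and 715 genes. DESeq2 and limma voom also called 0 members, while DESeq2 called 1 gene in young mice and voom 2 genes in old mice. The member medians were -0.052 at young age, -0.023 at old age and -0.054 averaged, and those of all genes tested were -0.0032, 0.0026 and 0.00037. In young mice 59 of 79 members had a lower estimate under EOD, and in old mice 46. Complex IV had a median of -0.15 in young mice, where 14 of 16 tested genes had a lower estimate, and of -0.051 in old mice. With a correction for gene length in each library the value in young mice was -0.11, and without the third young AL mouse -0.16. Among the tested complex IV genes under 500 counts, Cox7c, Cox6b2, Cox6a2, Cox8b and Cox7a1 had a lower estimate in young mice. Each of these had a 95% interval that spanned 0, and Cox4i2 had a higher estimate. In 71 of 79 members the 95% interval of the averaged diet difference lay within 1.5-fold in either direction.

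Cox6a1 (chromosome 5, 115345642 to 115348981, minus strand), the ubiquitous form of subunit 6a of complex IV, had the smallest p of all members in young mice. Young AL mice had 104, 142, 153 and 150.0 CPM and young EOD mice 106, 93.7 and 119.9 CPM. The first young AL mouse lay among the EOD mice, and the other 3 lay above them. The log2 fold change was -0.37 (SE 0.128, edgeR FDR 0.996), and -0.31 without the third young AL mouse. Old AL mice had 120.0, 123, 158 and 153 CPM and old EOD mice 134, 134, 152 and 119 CPM, and these groups overlapped. A part of its coding sequence is shared, with 22.3% of windows present in a pseudogene. Cox5a, a subunit on the matrix side of the enzyme, had 111 ± 11.9 CPM in young AL and 94.1 ± 15.6 CPM in young EOD mice (log2 fold change -0.24, SE 0.106, edgeR FDR 0.996). With no filter beyond 1 count per gene, edgeR called Cox6a1 with diet in young mice (FDR 0.09997) and with age in EOD mice (FDR 0.0847), and Uqcrq with diet in old mice (FDR 0.0265). In that fit 0.0990%, 0.381% and 0.103% of all 26269 genes were called in these contrasts (26, 100 and 27 genes).

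Averaged over ages, the smallest p of complex V was that of Atp5d, a subunit of the rotor stalk (-0.24, SE 0.0980, edgeR FDR 0.983). It had 68.1 ± 12.8 CPM in young AL, 57.6 ± 8.49 in young EOD, 71.2 ± 7.66 in old AL and 60.2 ± 10.01 in old EOD mice, with overlap at both ages. In complex I the smallest p was that of the accessory subunit Ndufb6 (-0.14, SE 0.0751), in complex II that of Sdhb (-0.066, SE 0.0603) and in complex III that of Uqcr11 (-0.23, SE 0.115). None passed the threshold. Cox6a2, the muscle isoform of subunit 6a, differed by -0.63 (SE 0.288, edgeR FDR 0.983).

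The third question was whether the age difference depended on diet. No member passed for the interaction (edgeR, 0 of 79, with 1 at an unadjusted p under 0.05), and 0% of all genes did, with 362 at that p. DESeq2 and limma voom also called 0 members and 0 genes. The median of the members was 0.041 and that of all genes 0.0063. The member with the smallest p was Cox4i2 (chromosome 2, 152754173 to 152765037, plus strand), the isoform of subunit 4 known from lung and from oxygen-sensing cells. It had 0.603, 0.733, 0.378 and 0.753 CPM in young AL mice and 1.75, 1.03 and 1.18 CPM in young EOD mice. Old AL mice had 1.49, 2.76, 2.27 and 0.672 CPM, and old EOD mice 0.670, 0.797, 1.10 and 1.35 CPM. All young EOD mice lay above all young AL mice, and the fourth old AL mouse, which also held the pituitary signal, lay among the young AL mice. In AL mice the age difference was 1.48 (SE 0.456, edgeR FDR 0.199). Of the fits without 1 mouse, it was called in the fit without the fourth old AL mouse (1.81, edgeR FDR 0.0638), and Cox8b was called in AL mice in the fit without the fourth young AL mouse (2.90, edgeR FDR 0.0960). In EOD mice the age difference of Cox4i2 was -0.46 (95% interval -1.45 to 0.53), and the interaction was -1.93 (SE 0.661, edgeR FDR 0.9998). The gene had 153 counts over all mice.

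**Figure D4:**
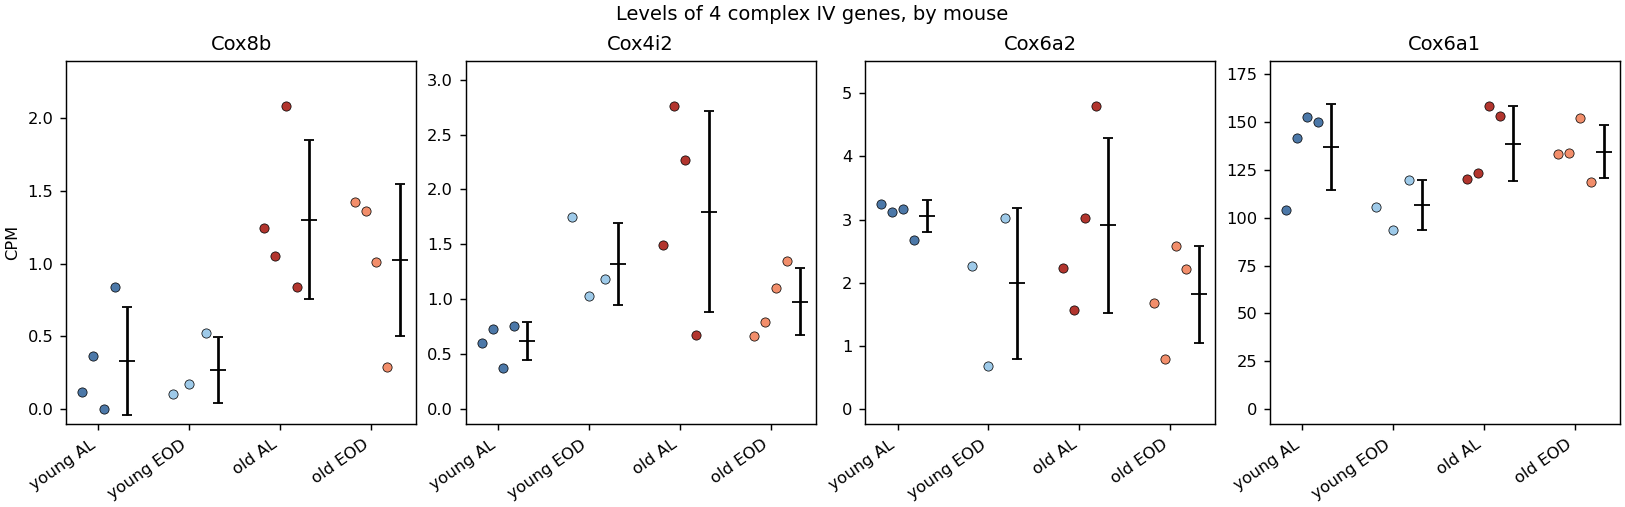
CPM of Cox8b, Cox4i2, Cox6a2 and Cox6a1 in each mouse, with the group mean ± SD as the bar beside the points. Cox8b is at 0 to 0.837 CPM in young and 0.289 to 2.08 CPM in old mice, and in Cox4i2 the 3 young EOD mice lie above the 4 young AL mice.

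In most subunit families of complex IV, 1 isoform held nearly all transcripts. Shares were computed from CPM per kilobase within each mouse. Cox4i1 made up 98.4% to 99.8% of subunit 4 transcripts, Cox6a1 96.8% to 99.4% of subunit 6a, Cox6b1 99.1% to 99.7% of subunit 6b and Cox7b 98.5% to 100% of subunit 7b. The share of Cox8b among subunit 8 transcripts was 0.496% ± 0.507 (SD, n = 4) in young AL, 0.440% ± 0.301 (n = 3) in young EOD, 1.92% ± 0.683 (n = 4) in old AL and 1.58% ± 0.762 (n = 4) in old EOD mice. Its highest share in any mouse was 2.77%, the rest was Cox8a, and Cox8c, known from testis, had 0 counts. In the subunit 7a family Cox7a2 held 72.3% to 79.9%, Cox7a2l, a factor for supercomplexes, 18.2% to 25.8%, and the muscle form Cox7a1 0.636% to 2.85%. Atp5g1, Atp5g2 and Atp5g3 encode the same mature subunit c of complex V. Atp5g3 held 94.2% to 96.9% of their counted transcripts, but the coding windows of Atp5g1 and Atp5g2 are nearly all shared with pseudogenes. Shares per kilobase also depend on gene model length, which was 4912 bases for Atp5g1 and 2181 for Atp5g3.

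Some well-counted members, chosen here after their values were seen, varied widely between mice of a group. Uqcrq (chromosome 11, 53427922 to 53430831, minus strand), a small subunit of complex III, had a within-group standard deviation of 0.491 on the log2 scale. It ranged from 14.1 to 44.3 CPM in young AL, from 20.1 to 34.3 in young EOD, from 24.9 to 43.4 in old AL and from 16.4 to 31.4 CPM in old EOD mice. Its diet difference in old mice was -0.53 (SE 0.265, edgeR FDR 0.9999). Next came the complex I subunits Ndufs7 (0.399), which holds an iron-sulphur cluster, and Ndufb7 (0.328). In all 3 genes the third young AL mouse was the lowest and the fourth the highest of the young AL mice.

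The members also shifted together between mice of a group. The median deviation of the 79 genes from their mean over all mice ranged from -0.107 in the first to 0.125 in the second young AL mouse on the log2 CPM scale. Other genes of like length (3416 genes, between the lower and upper quartile of the members' gene model lengths) deviated by -0.0514 and 0.0785 in these mice. Cytosolic ribosomal protein genes deviated by -0.0811 and 0.106, and the quartile of longest genes by 0.0718 and -0.0662. With a correction for gene length in each library, the member median was 0.023 for age and -0.023 for diet, in place of 0.047 and -0.054.

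**Figure D5:**
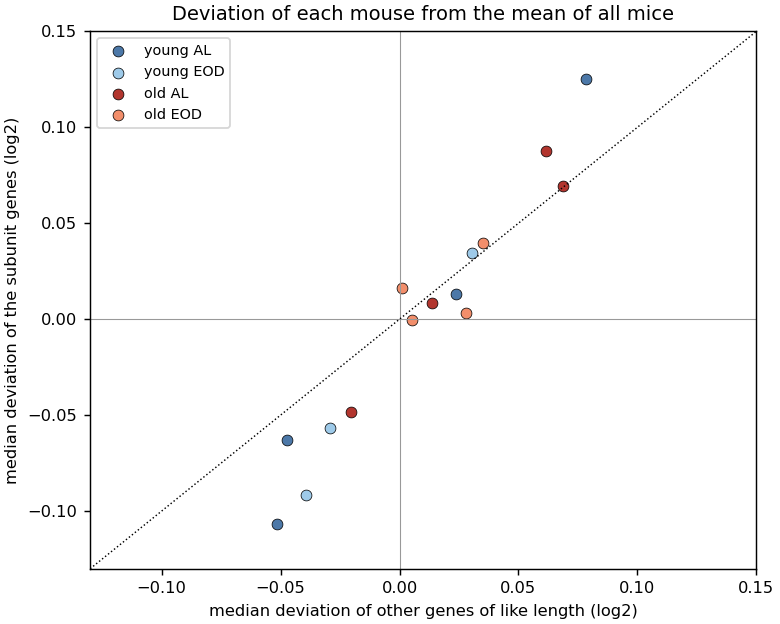
Each point is 1 mouse. The horizontal axis gives the median deviation of 3416 other genes of like length from their mean over all mice and the vertical axis that of the 79 subunit genes, both in log2 CPM; the young AL mice span the whole range of the subunit genes, from -0.107 to 0.125.

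The genes were also compared by what lies at their start sites. Transcription of many respiratory genes is known to be driven by the factors Nrf1, Gabpa and Yy1. In the 250 bases upstream of the RefSeq start (GRCm38.p6, matched for 68 of 82 members), both strands were searched for 3 motifs. The Nrf1 motif GCGCNTGCG was found in 16 of 68 members (23.5%), against 5.88% of the 27025 RefSeq genes with a promoter sequence. That background exceeds the 15864 genes tested and so includes genes not tested here, whereas most members were abundant. No background matched for expression was used. The ETS motif CCGGAAG, bound by Gabpa and its relatives, was found in 12 members (17.6%), against 7.83%, and the Yy1 motif AANATGGCG in 3 members (4.41%), against 1.29%. At least 1 of the motifs was present in 26 members (38.2%), against 13.6% of the same background. The promoters of Cox6a1, ubiquitous, and Cox8b, known from muscle, are given 5′ to 3′ with the motifs in capitals (GRCm38.p6, chr5:115348959-115349208 and chr7:140900447-140900696, both minus strand).
Cox6a1: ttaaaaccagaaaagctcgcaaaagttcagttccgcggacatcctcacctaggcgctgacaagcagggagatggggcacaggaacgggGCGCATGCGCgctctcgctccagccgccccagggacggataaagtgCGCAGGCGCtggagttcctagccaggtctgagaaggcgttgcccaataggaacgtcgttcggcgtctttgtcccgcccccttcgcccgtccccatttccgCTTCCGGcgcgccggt
Cox8b: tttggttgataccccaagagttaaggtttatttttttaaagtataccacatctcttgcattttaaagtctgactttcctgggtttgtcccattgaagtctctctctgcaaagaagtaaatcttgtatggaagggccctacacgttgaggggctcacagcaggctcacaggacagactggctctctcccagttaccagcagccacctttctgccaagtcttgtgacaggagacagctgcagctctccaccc
Cox6a1 held 2 Nrf1 matches and 1 ETS match, and Cox8b none of the 3 motifs. Several members start back to back with another gene. The start of a tested gene on the opposite strand lay within 1000 bases upstream in 16 of 79 members (20.3%), against 10.5% of all genes tested. Examples are Sdha with Ccdc127 (29 bases apart), Ndufa7 with the ribosomal protein gene Rps28 (29 bases) and Sdhd with Timm8b (52 bases), which encodes a mitochondrial import factor.

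Related gene lists were read in the same fits, for age averaged over diets. Assembly factors, which build the complexes, had a median of -0.040 over 52 tested genes, electron carriers and coenzyme Q genes of 0.046 over 19, enzymes of the TCA cycle, which supplies NADH and succinate, of -0.022 over 15, and transcription regulators such as Ppargc1a, Nrf1 and Gabpa of 0.0024 over 12. In these 4 lists edgeR, DESeq2 and limma voom called 0 genes. At an unadjusted p under 0.05, edgeR had 2, 0, 1 and 0 genes. Of the 13 mitochondrially encoded subunits, 7 were tested, with a median of 0.085, 1 at that p and 0 called by any of these tools, and mt-Co2, mt-Co3 and mt-Nd4l were listed at 0. Of 72 mitochondrial ribosomal proteins edgeR called 1, Mrps17, which fell, and their median was -0.0075. Of 68 cytosolic ribosomal proteins edgeR called 0, with 4 at an unadjusted p under 0.05, DESeq2 called 1 and limma voom 2, and their median was 0.074. With diet averaged over ages, all 3 tools called 0 genes of these lists, with at most 6 genes of a list at an unadjusted p under 0.05 by edgeR, and the list medians lay between -0.033 and 0.043.

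Markers of neurons and glia were abundant in all mice. Neuron markers summed to 9251 to 11797 CPM per mouse, oligodendrocyte markers to 5905 to 7742 and astrocyte markers to 4340.1 to 5228. With age averaged over diets, C1qa, Csf1r and Cx3cr1 rose among 6 microglia markers, Gfap and S100b among 7 astrocyte markers and Mbp among 7 oligodendrocyte markers (edgeR). Of the astrocyte markers 4 had a lower estimate in old mice, 1 of them with an unadjusted p below 0.05, and of the oligodendrocyte markers 2, 1 of them at that p. In EOD mice 6 of 7 oligodendrocyte markers had a lower estimate with age and in AL mice 1. EdgeR called 0 of 10 neuron markers, with 1 at an unadjusted p under 0.05, and DESeq2 and limma voom called 0. The summed neuron markers of old mice were 0.950 times and the summed microglia markers 1.23 times those of young mice, while the sum of the oxidative phosphorylation genes was 1.03 times. Without the third young AL mouse, which had the highest neuron sum, these ratios were 0.970, 1.23 and 1.03, and the median log2 fold change of the neuron markers was -0.046 in place of -0.087. For endothelium, choroid plexus, pituitary and red blood cells, all 3 tools called 0 markers with age averaged over diets, with 2, 1, 0 and 3 at an unadjusted p under 0.05 by edgeR. In AL mice edgeR called Gh and Prl among the 3 tested of 5 pituitary markers, whose sum was highest in the fourth old AL mouse. The part of cell composition in the values of the oxidative phosphorylation genes was not tested.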

How the data were processed

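RNA of 15 whole brains, 1 mouse each, was sequenced. Per the labels and the methods, the authors aligned reads to GRCm38 with STAR (version not given in the sources used here) and counted them per gene with featureCounts 1.5.0-p1 (primary alignments, mapping quality of at least 5, strand setting 2). The deposited values are these raw counts. From them, CPM on TMM-scaled totals and edgeR 4.0.16 quasi-likelihood fits over 4 group means were computed in R 4.3.3. Genes were filtered with filterByExpr (15864 tested) and called at a Benjamini-Hochberg FDR under 0.1. Standard errors were derived from the fold change and its F statistic, and 95% intervals use them. Named genes were those called in any of the 7 contrasts, the smallest p per complex for age and for diet, the highest per kilobase of each complex, isoform families and catalytic or core subunits. The subunit genes and lists were chosen with earlier results of these data known. Alternatives were another filter, RLE size factors, DESeq2 1.42.0, limma 3.58.1 voom with sample weights, a replicate block, sequencing lane, a length offset, the groups compared alone, an FDR of 0.05 and leaving out each mouse; 2 combinations were added after seeing the data. The scripts were tested on simulated data. All replicate pairs differed by more than counting noise. Coding sequences came from GENCODE and promoters from RefSeq (GRCm38.p6). Depth was 5198748 to 13610729 counts per mouse, which limits genes with few counts.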

Additional observations from a re-analysis of the deposited data

Results flagged for a closer look

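In 3 of 114 sets of 4 mice examined (38 values in 3 groups), 1 mouse lay farther from the other mice of its group than Dixon's limit allows, and chance gives about 1 in 20. Ndufa4 had 217 CPM in the first old EOD mouse, and the nearest other mouse of that group had 191 CPM. Ndufv1, which binds NADH, had 137 CPM in the first old AL mouse, and the nearest had 158 CPM. Cox7b had 116 CPM in the second old AL mouse, and the nearest had 121 CPM.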

How the results depend on the processing

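The count of called subunit genes depended on the filter and on single mice. With every gene of at least 1 count tested, 1 gene was called with age in EOD mice, 1 with diet in young mice and 1 with diet in old mice, against 0, beside 100, 26 and 27 of 26269 genes. The averaged diet contrast then had 65 genes and the interaction 26, none of them subunit genes. For age averaged over diets the count went from 1 to 0 with at least 10 counts in every mouse (Cox8b was then not tested), with the replicate block, with lane as covariate, with lane as covariate and the third young AL mouse left out, and at an FDR of 0.05. When 1 mouse was left out, the count ranged from 0 to 1 for age averaged over diets (10 of 15 fits gave 0) and from 0 to 1 for age in AL mice (2 of 15 gave 1), and was 0 in the other contrasts. The cause of these changes was not tested, apart from Cox8b not being tested under the stricter filter. Same-numbered mice did not deviate together (correlation of deviations -0.113 to 0.113 over 21 pairs), but most of them shared a sequencing lane. All mice numbered 1 were in lane 1 and all numbered 4 in lane 3. The replicate block therefore overlaps with the lane covariate, and it changed no other count of calls. The member median stayed within 1 within-group SD (0.0686) of its value in all fits. That SD exceeds the size of every main median, so this limit allows a change of sign and does not show that a median is stable. The medians ran from 0.014 to 0.068 for age averaged over diets, -0.0053 to 0.050 for age in AL mice, 0.026 to 0.114 for age in EOD mice, -0.060 to -0.023 for diet averaged over ages, -0.085 to -0.023 for diet in young mice, -0.044 to 0.0014 for diet in old mice and -0.0075 to 0.079 for the interaction. The sign thus changed in some fits for age in AL mice, diet in old mice and the interaction. For named genes, 56 of 1550 values changed direction, in 17 of 60 pairs of gene and contrast, none of them called. Scaling without mitochondrial transcripts raised the complex sums by 3.72% to 5.42%. Depth limits Cox8b, Cox4i2 and the other genes under 500 counts.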
